A study of Drosophila melanogaster with 24 samples.

Results

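The first leg of the fruit fly Drosophila melanogaster differs between the sexes. On its first tarsal segment the male carries the sex comb, a row of thick modified bristles that it uses to grasp the female, and male forelegs bear more taste bristles than female ones. Sex-specific products of the gene doublesex direct these differences, and taste neurons of the foreleg detect cuticular pheromones during courtship. By the hours after the adult leaves the pupal case these structures have already formed.

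The comparison described here set 4 samples of male first legs against 4 samples of female first legs, chosen by their titles, 8 of the 24 samples of a series that also covers antennae and proboscises. The legs were cut at the distal tibia, so they hold the tarsus with its claws, from adults 1 to 2 hours after eclosion. All samples come from dye-labelled, amplified RNA on arrays of 22575 spots in 105 rows and 215 columns. The series text gives 1 isogenic line, WI89, while the sample descriptions read RIL 58 or RIL 89, and no source used here explains the numbers or the difference. Male replicates 1 and 4 are labelled RIL 89 and male replicates 2 and 3 RIL 58. Female replicates 1 and 2 are labelled RIL 58 and female replicates 3 and 4 RIL 89. Nothing says that replicates were separate flies or cultures, so p-values cover only the variation among these samples, part or all of which may be technical.

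The files pair no spot with a gene. Spots are therefore given by their number, in reading order over the grid, for at most 2 spots in each direction, and the others are described by rank or range. For the same reason the labelled tissue and sex were not checked against marker genes, and no pathway could be counted.

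Each sample was 1 dye channel, and in each sex 2 samples were labelled with Cy3 and 2 with Cy5. The males in Cy3 were replicates 1 and 3, and the females in Cy3 were replicates 1 and 2. In the female legs dye and RIL number coincide and cannot be told apart, whereas in the male legs they are crossed. Samples that share an array were found from a quality mark per spot, identical over all spots for each pair of channels. On 1 array male replicate 2 in Cy5 lay with female replicate 1 in Cy3, and on another male replicate 3 in Cy3 lay with female replicate 4 in Cy5. The other 4 leg samples shared their arrays with antenna or proboscis samples.

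Signal depended strongly on dye. The median signal above local background was 115.8 and 101.6 in male replicates 1 and 3 and 102.5 and 116.8 in female replicates 1 and 2, all in Cy3. It was 31.4 and 17.7 in male replicates 2 and 4 and 41.5 and 18.2 in female replicates 3 and 4, all in Cy5. The signal above background was smaller than the background itself at 77.9% and 93.8% of spots in the Cy5 males and at 68.9% and 93.3% in the Cy5 females, but at no more than 0.137% in any Cy3 leg sample. After normalisation, leg samples of opposite sex and the same dye correlated at 0.918 to 0.965 across spots (8 pairs), and those of the same sex and dye at 0.897 to 0.965 (4 pairs). Samples of the same sex and different dye correlated at 0.664 to 0.707 (8 pairs). Sex thus parted the leg samples far less than dye did, and spots are not independent replicates.

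Part of that dye difference lay in a distinct set of spots. On 8 of the 12 arrays 471 spots were brighter in Cy3 than in Cy5 by 2.26 to 4.77 on the log2 scale, while at every other spot this difference was at most 0.97. At these 471 spots the median signal above background was 953 and 1120 in the Cy3 males and 1570 and 1140 in the Cy3 females, against 25.6 and 13 in the Cy5 males and 28.1 and 13.3 in the Cy5 females. On the other 4 arrays the same spots differed by 0.03 to 1.33 only. Female replicate 3 was the single leg sample on those 4 arrays. With all spots the channels of an array correlated at 0.628 to 0.737 on the 8 arrays and at 0.855 to 0.969 on the 4, and without the 471 spots at 0.841 to 0.940 and 0.866 to 0.978. The fit used here gives each array set its own dye effect. None of the 471 spots was called between the sexes in the legs, where 0.173% of all spots were called. At so small a share, no call among 471 spots does not show how well the fit removed dye there.

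In male legs 39 spots differed from female legs, which is 0.173% of the spots tested. Of these, 34 were higher in males (0.151% of all spots) and 5 were lower (0.0221%). The test was limma's moderated test over all 24 samples, with Benjamini-Hochberg adjusted p under 0.05. The differences of the 34 spots ran from 0.24 to 1.67 on the log2 scale, with a median of 0.56, and those of the 5 spots from -1.78 to -0.17. Over all spots the sex difference had a median of 0.002 and an SD of 0.101, and 51.2% of spots were above 0, so the excess of male-higher spots was seen among the called spots and not in the whole distribution. At an unadjusted p under 0.05 there were 757 spots higher and 772 lower in males. The count of 39 was 8 without female replicate 4, 16 without male replicate 3 and 59, with 37 higher and 22 lower, without female replicate 2. In fits restricted to the 8 leg samples, with 4 residual degrees of freedom, 2 spots passed, both higher in males.

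**Figure D1:**
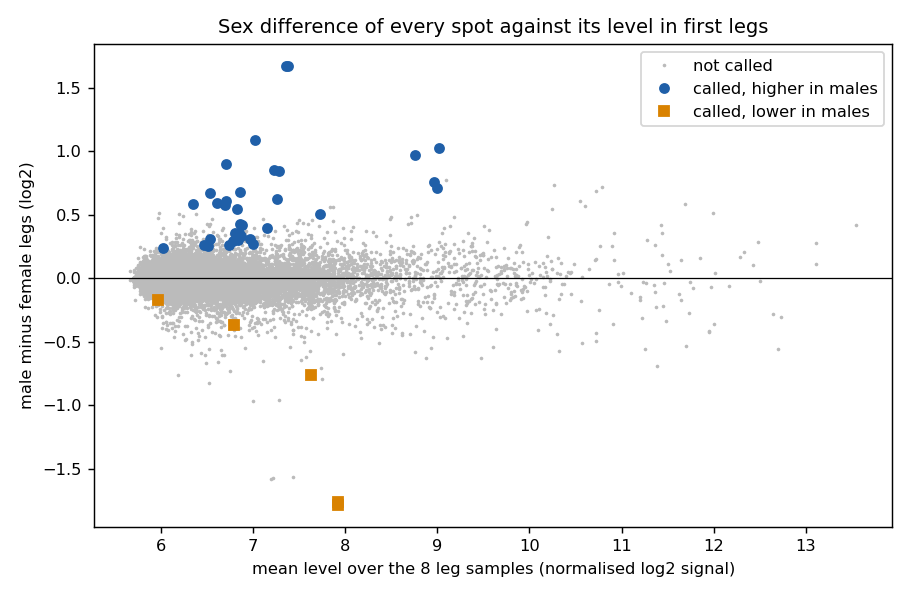
Male minus female difference of each spot in the first legs (log2, vertical axis) against its mean level over the 8 leg samples (normalised log2 signal, horizontal axis). Grey points were not called, blue circles are the 34 spots called higher in males and orange squares the 5 called lower, and the 2 leading spots in each direction lie beyond 1.6 on either side of 0.

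The called spots ranged widely in difference and in level. The difference was under 0.5 on the log2 scale at 17 of the 39 spots and over 1 at 6 of them, 4 higher and 2 lower in males. At 26 of the 39 the sex with the lower level lay within 0.5 of 6.29, the median level of all values, as it did at 78.9% of all spots. At 8 of the 39 the higher sex exceeded a level of 8, as it did at 3.92% of all spots. A called difference itself raises the level of the higher sex. At the 2 leading spots in each direction the lower sex averaged only 6.55 to 7.06. The share above 8 therefore follows in part from the selection and does not show that called spots are brighter apart from their sex difference. At 5 of the 39 spots the mean level in the legs exceeded the mean over antenna and proboscis by more than 1, against 0.886% of all spots. No leg sample carried a quality mark at any of the 39 spots.

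Spot 1777 (row 9, column 57) had the largest rise in male legs. Its level, the normalised log2 signal with the fitted dye, array-set and RIL terms removed, was 8.15, 8.37, 8.10 and 8.07 in male replicates 1 to 4, against 6.42, 6.71, 6.64 and 6.43 in female replicates 1 to 4. The lowest male, replicate 4, stood well above the highest female, replicate 2, and the groups did not overlap. The fitted difference was 1.67 ± 0.08 (SE), with a limma adjusted p of 2.24e-09. In the scanner values the signal above background was 348.2 and 363.9 in the Cy3 males against 111.1 and 148.2 in the Cy3 females, and 501.4 and 104.9 in the Cy5 males against 41.4 and 30.2 in the Cy5 females. Within its own sample the spot ranked at percentiles of 95.9 to 97.5 by signal in the 4 males and of 49.9 to 78.7 in the 4 females. The male legs thus held this spot among their brightest, whereas in the female legs it stood nearer to the middle of all spots.

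Spot 18813 (row 88, column 108) gave nearly the same values. Its level was 8.40, 8.39, 8.01 and 8.0 in male replicates 1 to 4, against 6.43, 6.69, 6.60 and 6.51 in female replicates 1 to 4. The groups did not overlap. The difference was 1.67 ± 0.09 (SE; limma adjusted p 2.88e-09). Across the 24 samples the 2 spots correlated at 0.992, with no other spot at 0.9 or above for either. The largest gap between them in any leg sample was 0.25, and over the 16 antenna and proboscis samples, where both were low, they correlated at 0.830.

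Both spots were low in the other body parts of both sexes. Spot 1777 averaged 8.17 ± 0.14 in male legs and 6.55 ± 0.15 in female legs (SD, n = 4 each). Its 8 antenna samples lay between 6.48 and 6.86 and its 8 proboscis samples between 6.35 and 6.69, so the level in female legs was within the range of tissues in which no sex difference was called. The sex difference was -0.09 ± 0.10 in the antenna and 0.18 ± 0.13 in the proboscis (SE). For spot 18813 these were -0.07 ± 0.10 and 0.05 ± 0.13 (SE), with antenna samples between 6.44 and 6.84 and proboscis samples between 6.37 and 6.57.

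Spot 321 (row 2, column 106) had the largest fall in male legs. Its level was 6.48, 6.64, 7.43 and 7.52 in male replicates 1 to 4, against 8.36, 8.73, 9.21 and 8.99 in female replicates 1 to 4. No male reached the lowest female, but the spread within each sex was wider than at the male-higher pair. The fitted difference was -1.78 ± 0.16 (SE), with a limma adjusted p of 1.27e-05. The signal above background was 130.9 and 182.5 in the Cy3 males against 486.0 and 565.0 in the Cy3 females, and 43.1 and 55.9 in the Cy5 males against 705.9 and 192.9 in the Cy5 females. The spot ranked at percentiles of 65.2 to 92.6 in the 4 males and of 96.4 to 98.5 in the 4 females.

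Spot 17374 (row 81, column 174) repeated this pattern. It had levels of 6.69, 6.59, 7.42 and 7.55 in male replicates 1 to 4, against 8.36, 8.68, 9.05 and 9.10 in female replicates 1 to 4, again without overlap. The difference was -1.76 ± 0.14 (SE; limma adjusted p 1.48e-06), and the spot correlated with spot 321 at 0.995 across the 24 samples, where neither had another spot at 0.9 or above.

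At this female-higher pair replicates 3 and 4 were higher than replicates 1 and 2 in both sexes. In the female legs that split is also the split by dye and by RIL number, and the 3 cannot be told apart there, whereas in the male legs each side holds both dyes and both RIL numbers. At spot 321 replicates 3 and 4 exceeded replicates 1 and 2 by 0.92 in male legs and by 0.55 in female legs, and at spot 17374 by 0.85 and 0.56. At the male-higher spot 1777 the same differences were -0.18 and -0.03, and at the male-higher spot 18813 they were -0.39 and 0. With replicate number as a block, spot 321 differed by -1.84 ± 0.16 between male and female legs and spot 17374 by -1.76 ± 0.13 (SE). In the 8 leg samples alone the differences were -1.85 ± 0.29 and -1.78 ± 0.26 (SE), but neither passed (limma adjusted p 0.744 and 0.540), and spot 18813 did not pass there either (0.0773), while spot 1777 did (0.0487).

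At the female-higher pair the male legs themselves differed between samples in how far they stood above the other body parts. At spot 321 male replicates 1 and 2 lay within the range of 6.29 to 6.79 of the proboscis samples, and male replicates 3 and 4 above it. The antenna samples lay between 6.35 and 6.65. All 4 female leg samples were above every sample of the other body parts.

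**Figure D2:**
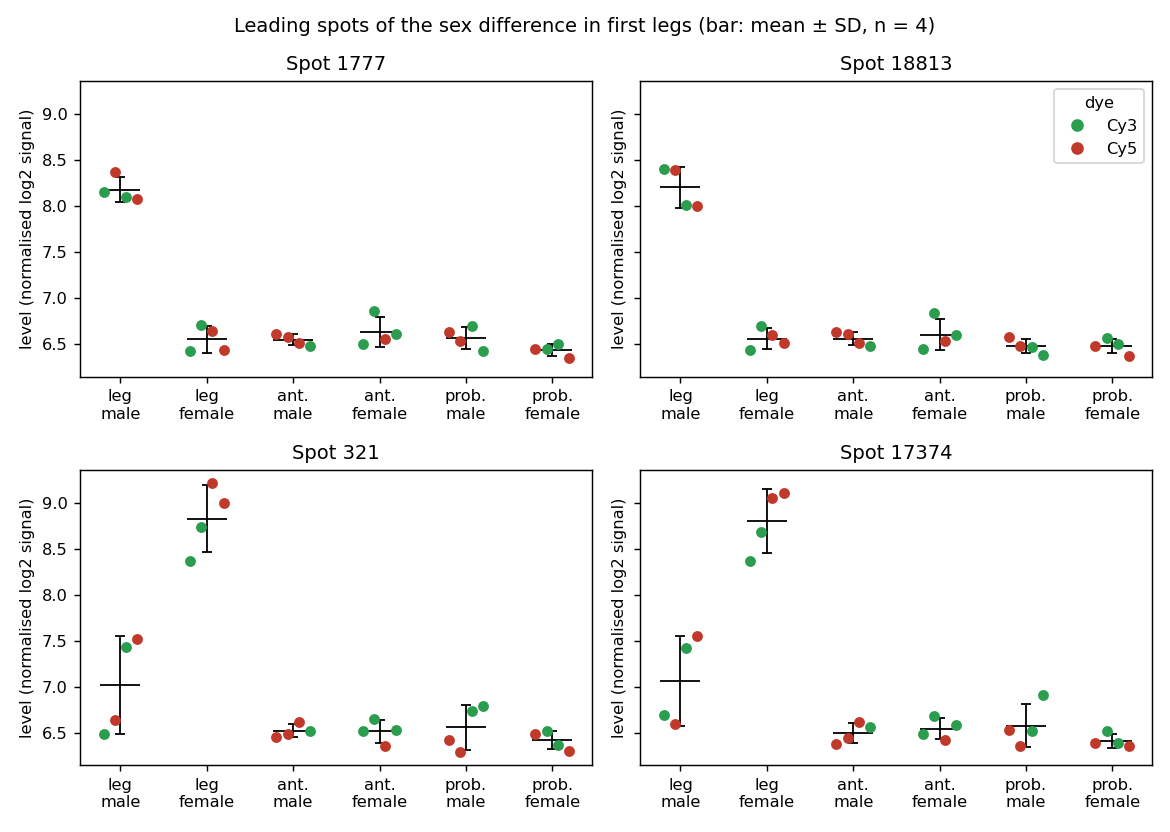
Levels (normalised log2 signal, vertical axis) of the 2 spots with the largest rise and the 2 with the largest fall in male first legs, in all 24 samples. Points are samples, green for Cy3 and red for Cy5, and bars are the mean ± SD of 4 samples. Male legs stand above every other group at spots 1777 and 18813, and female legs stand above every other group at spots 321 and 17374.

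The direction held in each dye taken by itself at these 4 spots. With Cy3 alone, 2 males against 2 females, the log2 difference was 1.56 at spot 1777, 1.64 at spot 18813, -1.52 at spot 321 and -1.43 at spot 17374, and with Cy5 alone it was 2.02, 1.97, -2.21 and -2.15. With 2 samples a side these are values without a test. Of the 39 called spots, 37 had the sign of the fitted difference within Cy3 and within Cy5, as did 31.4% of all spots. The 39 were called on these same samples, so a higher share among them follows largely from their selection and is no further support.

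The arrays that held a male and a female leg sample together gave a direct comparison in opposite dyes. At spot 1777 male replicate 2 exceeded female replicate 1 by 2.24 on the log2 scale and male replicate 3 exceeded female replicate 4 by 1.36, and at spot 18813 these ratios were 2.27 and 1.24. At spot 321 they were -1.80 and -1.62, and at spot 17374 -1.74 and -1.79. Both ratios had the sign of the fitted difference at 37 of the 39 called spots, as they did at 23.9% of all spots. The 2 exceptions were both male-higher in the fit, with ratios of 0.82 and -0.26 at 1 and 0.73 and -0.09 at the other. Over all spots the ratios of the arrays correlated at -0.88, and without the 471 Cy3-bright spots at -0.58, with the dyes turned between the arrays. These samples are part of the fit, so the ratios show its raw material and are no further replication.

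**Figure D3:**
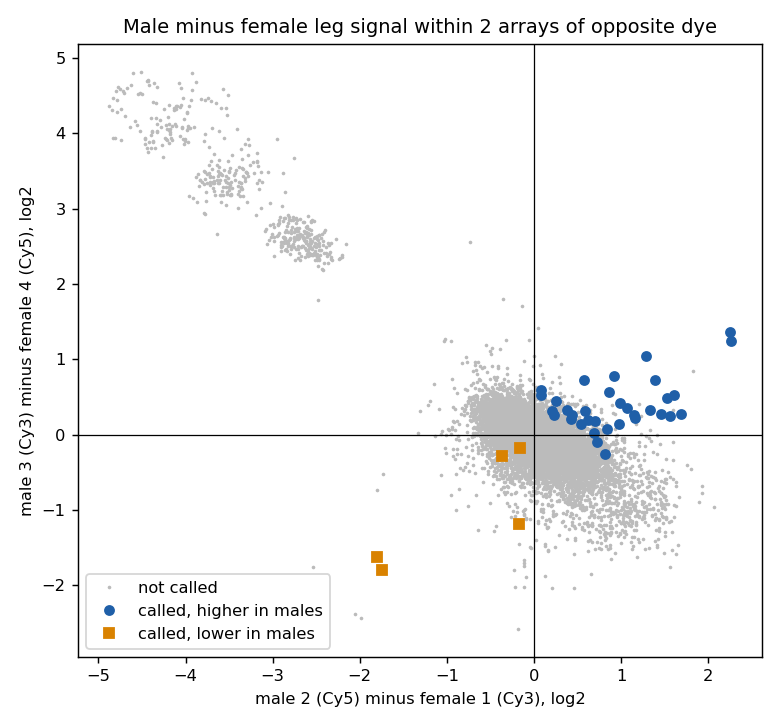
Log2 difference of male minus female leg signal within each of the 2 arrays that carried both sexes, male replicate 2 (Cy5) minus female replicate 1 (Cy3) on the horizontal axis and male replicate 3 (Cy3) minus female replicate 4 (Cy5) on the vertical axis. Grey points are spots not called, which run from upper left to lower right, with the Cy3-bright spots at the upper left. Of the called spots (blue circles higher, orange squares lower in males), 37 of 39 fall in the quadrant of their fitted sign.

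The sex difference of the legs was next set against the mean of those in antenna and proboscis, to ask which spots differed between the sexes in the legs in another way than elsewhere. Dye was not balanced between the sexes in the antenna. Male antenna replicates 1, 2 and 3 were in Cy5 and replicate 4 in Cy3, while female antenna replicates 1, 2 and 4 were in Cy3 and replicate 3 in Cy5. Antenna sex differences therefore lean on the fitted dye terms. In this test 8 spots passed, 0.0354% of all spots. With sign counted, the leg difference lay above that of the other parts at 6 (0.0266%) and below it at 2 (0.00886%). Of the 8, 7 were among the 39. Besides the 4 leading spots these 7 were the fourth largest rise and 2 rises of 0.43 and 0.39. The leg difference exceeded that of the other parts by 1.63 ± 0.11 at spot 1777 and 1.68 ± 0.11 at spot 18813 (SE), with a limma adjusted p of 2.54e-07 for each. At spots 321 and 17374 it was -1.82 ± 0.21 and -1.79 ± 0.18 (SE), with a limma adjusted p of 5.85e-04 and 8.68e-05. The remaining spot, which did not pass in the legs, had a sex difference of 0.04 in the legs, -0.19 in the antenna and -0.96 in the proboscis. The count of 8 was 4 without female leg replicate 4 or female proboscis replicate 1, and 5 without male leg replicate 3 or 4, male antenna replicate 1 or 2, female proboscis replicate 4 or male proboscis replicate 4. With 1 dye effect for all arrays it was 19, of which 7 were shared, and in the 8-array set alone 25, of which 6 were shared.

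The fourth largest rise lay at a much brighter spot. Its level was 9.47, 9.59, 9.28 and 9.72 in male replicates 1 to 4, against 8.56, 8.54, 8.64 and 8.36 in female replicates 1 to 4. The groups did not overlap, and the difference was 1.03 ± 0.12 (SE; limma adjusted p 2.12e-04). The signal above background was 695.9 and 605.2 in the Cy3 males against 390.2 and 400.6 in the Cy3 females, and 1118.2 and 351.8 in the Cy5 males against 564.9 and 136.4 in the Cy5 females. Antennae averaged 7.92 in males and 8.12 in females and proboscises 7.09 and 7.03, so this spot was high in the legs of both sexes and higher in male ones. Its leg difference exceeded that of the other parts by 1.08 ± 0.15 (SE; limma adjusted p 0.00741).

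Male-higher spots were also found that the legs share with the antenna. Of the 34, 17 passed in the same direction in the antenna, where 33 spots passed (0.146% of all), 29 higher in males (0.128%) and 4 lower (0.0177%). In the antenna most males were in Cy5 and most females in Cy3, so these calls depend on how well the model removes dye. In the proboscis 3 spots passed (0.0133%), all lower in males (0.0133%). At these 17 the difference was 0.27 to 1.09 in the legs, 0.35 to 1.40 in the antenna and 0.10 to 0.86 in the proboscis, where none of the 17 passed. The SE at each of them was larger in the proboscis than in the legs, 0.17 against 0.11 at the third largest rise. The proboscis test was thus less sensitive, and its lack of calls does not show that the difference is absent there. At each of the 17 spots the leg value lay below the antenna value and above the proboscis value. None passed the test of the leg difference against the other parts (smallest adjusted p 0.952).

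The third largest rise led this group. Its level was 7.73, 7.54, 7.6 and 7.5 in male leg replicates 1 to 4, against 6.54, 6.46, 6.57 and 6.29 in female leg replicates 1 to 4, without overlap. The leg difference was 1.09 ± 0.11, the antenna difference 1.40 ± 0.12 and the proboscis difference 0.86 ± 0.17 (SE), with limma adjusted p of 3.95e-05 in the legs and 0.208 in the proboscis. Male means were 7.59 in legs, 7.93 in antennae and 7.12 in proboscises, beside female means of 6.46, 6.49 and 6.25. Females of all 3 body parts were thus near the median of all spots, and males of all 3 above it.

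The 17 spots moved together across samples. Over the 136 pairs of them the correlation across the 24 samples had a median of 0.89 and ran from 0.67 to 0.98, and over the 16 antenna and proboscis samples its median was again 0.89. Levels of the 17 were modest, with male leg means of 6.67 to 7.68 and female leg means of 6.03 to 6.95. The spots were grouped by their calls, so their likeness in sex difference is a description.

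The other 15 called spots, 12 higher and 3 lower in males, passed neither the antenna test in the same direction nor the test against the other parts. The 12 had leg differences of 0.24 to 0.97, antenna differences of -0.27 to 0.26 and proboscis differences of -0.20 to 0.17. For the largest of them, the fifth largest rise, male legs averaged 9.23 and female legs 8.29, the antenna difference was -0.17 and the proboscis difference 0.17, and its excess over the other parts had an adjusted p of 0.233. That spot exceeded the mean of the other body parts by 2.58 in the legs and correlated at 0.9 or above with 193 other spots over the 24 samples. The 3 lower spots, the first of which lies outside the naming rule and was chosen after its values were seen, had leg differences of -0.76, -0.36 and -0.17, and at the first of them the male and female legs overlapped and the antenna difference was -0.69.

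**Figure D4:**
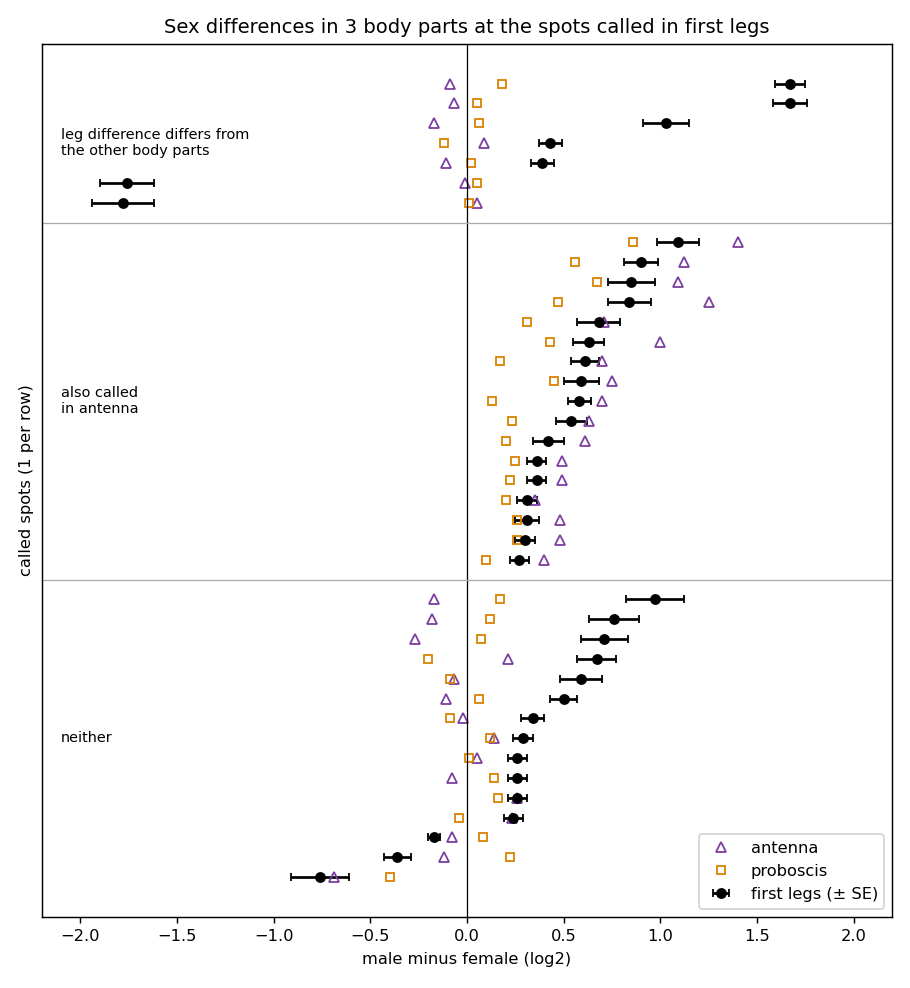
Male minus female log2 differences in first legs (black, ± SE), antenna (open triangles) and proboscis (open squares) at the 39 spots called in first legs, 1 spot per row. Rows are grouped into the 7 spots whose leg difference differed from that of the other parts, the 17 also called in the antenna and the other 15. In the first group the open symbols lie within 0.18 of 0, and in the second every symbol is above 0.

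Several called spots came in pairs on the grid. In 5 pairs whose members lay 79 rows apart, each spot was the most similar spot to the other over the 24 samples, at correlations of 0.972 to 0.995. The third largest rise formed another such pair, at a distance of 24 rows and a correlation of 0.978, with a spot that differed by 0.59. The leg differences within the 5 pairs were 1.67 and 1.67, 0.76 and 0.71, 0.61 and 0.58, 0.43 and 0.34, and -1.78 and -1.76. A further 2 called spots had their most similar spot, also called, at this distance but without the converse. Only rows toward the top and bottom of the grid have a partner row at 79 rows. They hold 21 of the 39 called spots (53.8%) and 49.5% of all spots. Among the 160 spots that varied most (SD over 1), 77 lie there and 49 of these had their most similar spot 79 rows away. The files do not say whether such spots carry the same probe, so the 39 spots may stand for fewer probes.

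Non-overlapping values alone were not rare. Levels of the 4 male and the 4 female leg samples were fully separated at 448 spots, 1.98% of all, of which 215 were higher and 233 lower in males, and 37 of the 39 called spots were among them. Of the 9 spots with a difference over 1 in size, 6 were called. The 3 others differed by -1.58, -1.57 and -1.57 with SEs of 0.46 to 0.49, their groups overlapped, and the limma adjusted p was 0.326 to 0.398. Large falls at these 3 spots were therefore not told apart from the spread between samples.

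Male replicate 3 and female replicate 4, which shared an array, deviated together from their group means, with a correlation of 0.81 across spots, and male replicate 2 and female replicate 1, on the other shared array, with 0.32. Male replicate 1 and female replicate 2, on different arrays, reached 0.35, so a value of 0.32 was not particular to a shared array. With 1 dye effect for all arrays 27 spots passed, 0.12% of all, 25 higher (0.111%) and 2 lower (0.00886%), and 25 of these were also among the 39, 23 higher and 2 lower. When the 471 Cy3-bright spots were left out before normalisation, a setting chosen after the data were seen, 52 spots passed, 42 higher and 10 lower in males, and all 39 were among them. Spots 1777, 18813, 321 and 17374 and the third and the fourth largest rise passed in each of the 24 fits that left out 1 sample. Over those 24 fits the difference at spot 1777 ran from 1.57 to 1.73 and that at spot 321 from -2.01 to -1.61. Over the 21 other settings tried, spot 1777 passed in 21, spots 18813, 321 and 17374 in 19 each, the third largest rise in 20 and the fourth in 17. In these settings the difference ran from 1.29 to 1.97 at spot 1777 and from -2.13 to -1.46 at spot 321.

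**Figure D5:**
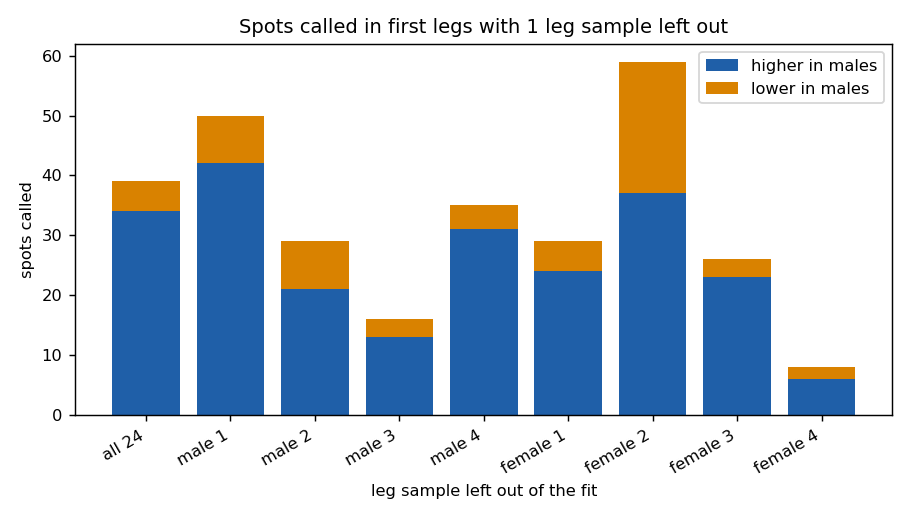
Number of spots called between male and female first legs (bar height, blue for higher and orange for lower in males) in the fit to all 24 samples and in fits that left out 1 leg sample. The count ranges from 8 without female replicate 4 to 59 without female replicate 2.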

How the data were processed

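Spot and background brightness were deposited by the authors as linear intensity values of 1 dye channel per sample, with no normalisation, per the file headers. Each spot also has a quality flag, whose codes are not explained there. No source used here names the image-reading program. The deposited value table holds natural logs (ln) of background-subtracted mean signals (largest deviation 9e-08), blank where that is not above 0, with leg column medians of 2.87 to 4.76, so scale and centring are known and its columns are not normalised between samples.

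Here normexp with an offset of 50, log2 and quantile normalisation over 24 samples were applied to the scanner values. A limma model held 6 groups of tissue and sex, dye within each of 2 array sets, and RIL number, with arrays as a random block (correlation 0.552), a variance trend and 14 residual degrees of freedom. Array sets were split at the widest gap (0.118, the next 0.0842) in the correlation between channels. Named spots were the 15 largest rises and up to 15 largest falls among called spots without overlap, numbered for the leading 2. More than 15 rises qualified, but only 4 falls did. Members, model and lists were chosen with earlier results of these data known. Tests were two-sided. Planned gene averages and lists were not run, because spots are unnamed. On simulated data for the leg comparison (22575 spots) the fit recovered 82 of 100 spots changed by 0.5 and 99 of 100 changed by 1 (log2), and 7.65% of its 196 calls were false. The simulation held more changed spots than were called in the legs. Its noise was normal with 1 array correlation, without a normalisation step, so these rates may not carry over to the measured data. Fits used limma 3.58.1 with statmod 1.5.0 in R 4.3.3, and plots used matplotlib 3.10.9 with pandas 2.3.3 under Python 3.11.15.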

Additional observations from a re-analysis of the deposited data

Results flagged for a closer look

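At 7 of the 39 spots called in the first legs, the male minus female difference in the legs differed from the mean of those in antenna and proboscis, by limma's test of that difference over all spots. The excess was 1.63 at spot 1777, 1.68 at spot 18813, 1.08 at the fourth largest rise, and 0.44 at each of 2 smaller rises. It was -1.82 at spot 321 and -1.79 at spot 17374. No leading spot had a single leg sample that stood apart from the other 3 of its sex. The ratio does not cover a split of 2 samples against 2, as in the male legs at spots 321, 17374 and 18813.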

How the results depend on the processing

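The count of 39 spots was 6 with the deposited values (4 higher, 2 lower in males), 20 with each sample scaled to 1 median, 24 with cyclic loess, 6 without a dye term, 10 without the array block, 6 with arrays as a fixed block, 21 with sample weights, 23 in the 8-array set alone, 2 in the 8 leg samples alone and 2 in the 7 leg samples of the 8-array set (chosen after the data were seen). Leaving out 1 sample gave 8 to 59. The count of 8 spots whose leg difference differed from the other parts was 4, 4, 5, 4, 4, 3, 5 and 25 in the first 8 of these settings, 19 with 1 dye effect, 13 with 1 dye effect and without the Cy3-bright spots, and 4 to 10 without 1 sample. In the deposited values all 6 calls were among the 39. For the second count the 4 calls split into 2 higher and 2 lower with the deposited values and with scaling, against 6 and 2, and without background correction the 8 split into 4 and 4. The other settings kept both counts within 1.5 times. Replicate numbers did not pair the leg samples (correlations of same-numbered deviations 0.12, 0.13, -0.17 and -0.17), and with the replicate block 27 spots passed, 26 of them the same, and 7 for the second count. Over 19 named spots and all settings with a test, the direction never turned in 854 values, and 166 no longer passed. These spots were chosen as called and without overlap, and the settings refit the same samples. A kept direction was therefore likely beforehand, and the 854 values are not independent. Cy5 signal was weak over background in the leg samples, and its effect on precision was not tested.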
